A study of Mus musculus with 10 samples.

Results

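The 10 genes described here are Nfe2l2, which encodes the transcription factor Nrf2, 6 enzyme or enzyme-subunit genes that are well-known Nrf2 targets (Srxn1, Txnrd1, Nqo1, Hmox1, Gclc and Gclm), and 3 enzymes that remove reactive oxygen directly (Sod2, Cat and Gpx1). They were chosen by symbol for these roles, from 37583 gene rows per library, and all 10 were among the 15364 genes with enough counts to be tested. Poly(A)-selected RNA from the left atria of adult mice was sequenced in 10 libraries. The libraries labelled KO (KO26 and KO337) are described as cardiac Csk knockouts, and WT (WT35 and WT338) as wild type without treatment. IBR (IBR1, IBR2 and IBR3) received ibrutinib, an inhibitor of Bruton's tyrosine kinase that is given against B cell cancers, and CTL (CTL1, CTL2 and CTL3) received vehicle. The labels give no strain, age in weeks, dose, treatment time or the promoter of any Cre driver, and do not say whether 1 library is 1 animal, so p-values measure the spread between libraries only.

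Nrf2 is the main transcription factor of the oxidant response. In unstressed cells Keap1 holds it for ubiquitination and degradation, and oxidants or electrophiles modify Keap1, so that Nrf2 accumulates, pairs with a small Maf protein and binds antioxidant response elements near its target genes. The targets supply glutathione, keep thioredoxin and peroxiredoxins reduced, and detoxify quinones and heme. In heart muscle, whose mitochondria are abundant, superoxide formed by respiration is turned into hydrogen peroxide by the mitochondrial dismutase Sod2, and catalase and glutathione peroxidases then break down the peroxide.

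Values are CPM (read counts relative to the total of each library) scaled by trimmed means of M values (TMM), fold changes are on the log2 scale with their standard error (SE), and a gene was called where the p of edgeR's quasi-likelihood test, adjusted by Benjamini-Hochberg over all tested genes, was under 0.05. Total gene counts per library lay between 14907331 and 19960947. Csk itself (C-terminal Src kinase) was at 24.7 and 35.5 CPM in KO26 and KO337, against 18.3 and 17.8 CPM in WT (log2 0.74, SE 0.18, adjusted p = 0.0608), so each direction between genotypes below is that of a label which Csk does not bear out. Counts summed over a gene cannot show which exon or which cell type lost it. The libraries labelled KO were less alike than other replicates: they correlated with each other at a Spearman coefficient of 0.955, where other pairs within a group had 0.984 to 0.991. Their TMM factors, 1.157 and 1.228, lay above those of the other libraries, 0.870 to 1.026. The summed CPM of 10 cardiomyocyte markers was 54292 and 28154 in KO26 and KO337, against 68768 to 73692 in WT, and in the drug experiment it was 76266 to 81592 in IBR, against 80859 to 94067 in CTL. That of 10 macrophage markers was 921 and 3366 in KO26 and KO337, against 544 to 595 in WT, and that of 9 fibroblast markers was 3241 and 12528, against 2550 to 2775 in WT. In the drug experiment the macrophage sum was 411 to 580 in IBR, against 308 to 375 in CTL, and the fibroblast sum was 1690 to 2538 in IBR, against 1058 to 1654 in CTL. The sum of 7 red cell markers was 1010 and 41.4 in KO26 and KO337, against 78.0 to 182 in WT. For the drug experiment that sum was 463 to 1463 in IBR, against 213 to 2421 in CTL. The atrial light chain Myl7 was present in every library, at 2044 to 8990 CPM, and no marker was at 0 in all libraries. In bulk tissue fewer cells of a type and less RNA per cell cannot be told apart, and the part of these shifts in the results below was not tested.

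The start regions of the genes are shown for the 3 members with the largest differences between genotypes, because Srxn1 holds the core letters of an antioxidant response element and the others do not. RefSeq sequences (GRCm38.p6) were matched for 8 of the 10 members, Hmox1 and Gclc being the others, in windows of 300 bases from 250 before to 50 after an annotated start. The 250 bases before the start are given 5′ to 3′ on the gene's strand, with matches to TGACNNNGC or TGAGNNNGC on either strand in capitals. Srxn1 lies at chr2:152105274-152105523 on the plus strand, Sod2 at chr17:13007589-13007838 on the plus strand and Gpx1 at chr9:108338830-108339079 on the plus strand.
Srxn1: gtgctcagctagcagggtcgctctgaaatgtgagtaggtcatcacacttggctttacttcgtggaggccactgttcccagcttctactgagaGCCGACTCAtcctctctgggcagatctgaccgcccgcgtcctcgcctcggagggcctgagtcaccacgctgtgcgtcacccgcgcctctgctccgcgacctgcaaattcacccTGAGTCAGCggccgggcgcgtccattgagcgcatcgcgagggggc
Sod2: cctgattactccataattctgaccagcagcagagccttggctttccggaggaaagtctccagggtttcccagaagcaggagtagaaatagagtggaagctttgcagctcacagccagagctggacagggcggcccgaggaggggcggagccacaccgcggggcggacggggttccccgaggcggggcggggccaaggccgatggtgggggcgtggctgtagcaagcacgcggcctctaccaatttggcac
Gpx1: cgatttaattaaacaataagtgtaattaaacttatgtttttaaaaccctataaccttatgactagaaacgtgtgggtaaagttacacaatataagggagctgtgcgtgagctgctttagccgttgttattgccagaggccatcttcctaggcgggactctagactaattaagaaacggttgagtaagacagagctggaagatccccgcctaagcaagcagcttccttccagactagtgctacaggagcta

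Srxn1 had 3 matches in its window. The match nearest to the start on the upstream side, TGAGTCAGC at base -45, also contains TGANTCA, the letters of a site for AP-1, a factor family that shares part of this motif with Nrf2. A further upstream match read TGAGTCGGC on the other strand at base -158, and the last one, TGACCTAGC on the other strand, lay 29 bases into the transcript. For Nfe2l2, the bases checked after the start were in none of its GENCODE vM21 transcripts, while those of every other member window were in a transcript. The position of its match relative to the start is therefore less certain. The other members with a match had 1 each, shown with 10 bases on either side because their positions differ, on chromosomes 3, 2 and 10.
Gclm, first base at -134: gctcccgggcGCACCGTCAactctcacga
Nfe2l2, first base at -240: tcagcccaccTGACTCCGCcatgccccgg
Txnrd1, first base at -92 of 1 of its 3 annotated starts: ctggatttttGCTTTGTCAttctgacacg
Among 32851 windows of the same length, 27.8% held either motif, 12.4% TGACNNNGC, 17.6% TGAGNNNGC, 1.19% TGANTCAGC and 7.81% TGANTCA, while 0.630% held 3 or more matches. By window, 4 of the members' 10 windows had a match, 1 of them among the 3 of Txnrd1, and the count in Srxn1 is one that few windows reach. Nqo1, Cat, Sod2 and Gpx1 had none, which says only that these letters are not in these windows.

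Nfe2l2 (ENSMUSG00000015839), the gene of Nrf2 itself, had overlapping levels in both comparisons. It had 128 and 146 CPM in KO26 and KO337, against 119 and 149 CPM in WT35 and WT338. The genotype groups overlapped, and the log2 difference was 0.03 (SE 0.23, 95% interval -0.47 to 0.54, adjusted p = 0.946). In the drug experiment it had 119.6, 115 and 158 CPM in IBR, against 135, 87.7 and 117 CPM in CTL. Those groups overlapped as well, at log2 0.21 (SE 0.19, 95% interval -0.20 to 0.62, adjusted p = 0.854). Nrf2 activity is set largely by the stability of the protein, which messenger RNA does not measure.

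Among the members, 1 was called between genotypes. Srxn1 (ENSMUSG00000032802) encodes sulfiredoxin, which restores peroxiredoxins that hydrogen peroxide has overoxidized. Its level was 28.3 and 38.0 CPM in KO26 and KO337, against 68.1 and 66.1 CPM in WT35 and WT338. Both libraries labelled KO lay below both WT libraries, and Srxn1 was lower by 1.02 on the log2 scale, or 2.02-fold (log2 -1.02, SE 0.20, 95% interval -1.46 to -0.57, adjusted p = 0.0404). In the drug experiment it had 28.1, 30.7 and 39.0 CPM in IBR, against 33.9, 41.9 and 33.6 CPM in CTL. These groups overlapped, with a log2 difference of -0.16 (SE 0.17, 95% interval -0.53 to 0.21, adjusted p = 0.876). Across all libraries, the KO, IBR and CTL values fell within 28.1 to 41.9 CPM, and only the WT libraries lay above that range. WT and CTL belong to different experiments and were not compared by a test.

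The call of Srxn1 sat close to the threshold. Its log2 difference was negative in all 16 alternative settings, but most of these could hardly turn the sign. The CTL and IBR libraries do not enter the means of KO and WT. As both libraries labelled KO lay below both WT libraries, leaving out 1 of these keeps the order. Srxn1 was called in 4 of the 16 settings, with log2 differences from -1.27 to -0.78 over all 16. Leaving out 1 of the CTL or IBR libraries gave adjusted p values from 0.0538 to 0.0619, and leaving out WT35, WT338 or KO337 gave 0.186, 0.160 and 0.0520, whereas without KO26 the value was 0.0185. Without KO337 the log2 difference was -1.27, and without KO26 it was -0.84. The level of Srxn1 per 100000 CPM of cardiomyocyte markers, a ratio formed after its values were seen, was 52.1 and 135 in KO26 and KO337, against 92.4 and 96.1 in WT, so relative to those markers the genotype groups overlapped.

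**Figure D1:**
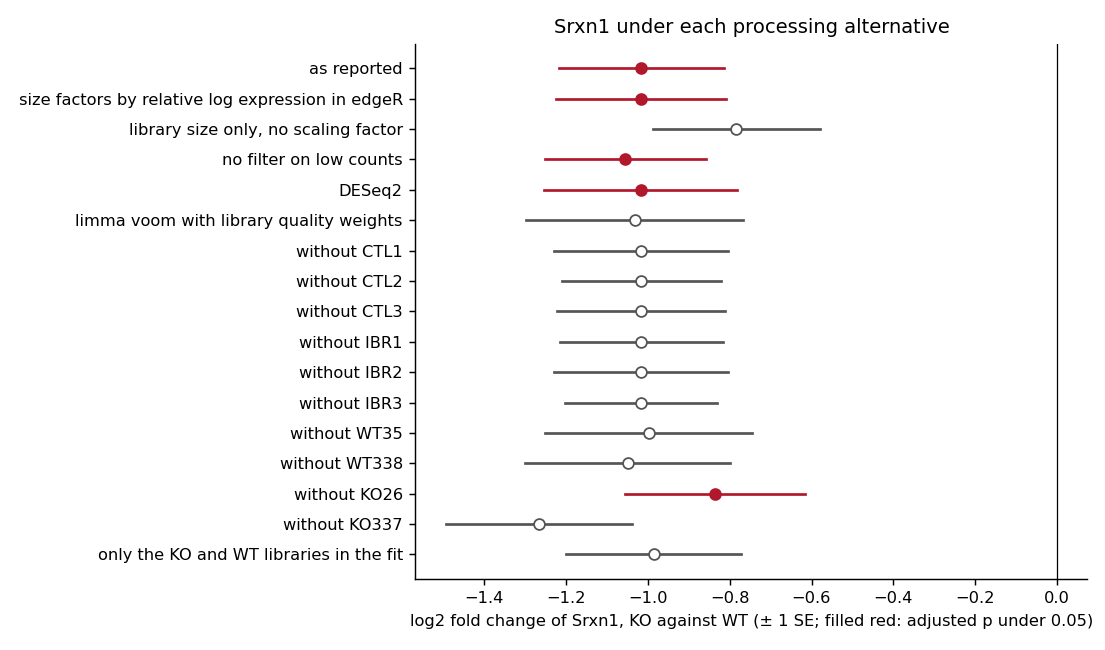
Log2 difference of Srxn1 between libraries labelled KO and WT (horizontal axis) as reported and under 16 alternatives (rows), with bars of 1 standard error to either side and filled points where the adjusted p was under 0.05. Every point lies below 0, between -1.27 and -0.78, and 4 alternatives were called.

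The other Nrf2 targets were not called. Txnrd1 (ENSMUSG00000020250), the cytosolic thioredoxin reductase, had 84.0 and 95.5 CPM in KO26 and KO337, against 104 and 124 CPM in WT. The libraries labelled KO were both below WT, by less than for Srxn1 (log2 -0.35, SE 0.16, 95% interval -0.70 to 0.01, adjusted p = 0.200). In IBR it was at 85.0, 106 and 107.5 CPM, against 104, 111 and 103 CPM in CTL, and the groups overlapped (log2 -0.09, adjusted p = 0.903).

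Nqo1 (ENSMUSG00000003849) encodes a quinone reductase that is widely used as a readout of Nrf2 activity. It had 17.2 and 12.2 CPM in KO26 and KO337, against 15.7 and 14.3 CPM in WT. WT lay inside the range of the libraries labelled KO, at a log2 difference of -0.03 (SE 0.22, adjusted p = 0.943). In the drug experiment Nqo1 had 14.4, 15.9 and 19.5 CPM in IBR, against 13.5, 13.0 and 16.1 CPM in CTL. The groups overlapped (log2 0.22, SE 0.18, adjusted p = 0.835).

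Hmox1 (ENSMUSG00000005413), the inducible heme oxygenase, varied most among the members between replicates of a genotype. Its level was 18.3 and 42.0 CPM in KO26 and KO337, against 20.4 and 74.5 CPM in WT35 and WT338. The WT libraries were 3.66-fold apart, and both libraries labelled KO lay between 18.3 and 42.0 CPM, so the groups overlapped (log2 -0.65, SE 0.56, 95% interval -1.91 to 0.61, adjusted p = 0.500), and the sign turned to 0.55 without WT338. The IBR libraries had 24.2, 20.8 and 30.2 CPM, against 31.7, 25.2 and 17.9 CPM in CTL, with a log2 difference of 0.01 (SE 0.46, adjusted p = 0.996).

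Gclc (ENSMUSG00000032350) and Gclm (ENSMUSG00000028124) encode the catalytic and the modifier subunit of glutamate-cysteine ligase, the rate-limiting enzyme of glutathione synthesis. Gclc was at 31.2 and 59.5 CPM in KO26 and KO337, against 34.2 and 39.6 CPM in WT. The WT libraries lay between the libraries labelled KO (log2 0.30, SE 0.31, adjusted p = 0.572), and without KO337 the difference was -0.26. It had 16.7, 17.0 and 25.7 CPM in IBR, against 17.8, 15.8 and 22.0 CPM in CTL (log2 0.10, SE 0.26, adjusted p = 0.953). Every genotype library was above every library of the drug experiment for this subunit, a gap between experiments that was not tested.

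Gclm was at 34.2 and 35.9 CPM in KO26 and KO337, against 32.7 and 35.5 CPM in WT (log2 0.04, SE 0.18, adjusted p = 0.918). In the drug experiment it had 39.2, 45.7 and 53.6 CPM in IBR, against 33.7, 33.2 and 43.0 CPM in CTL. In the fit of all libraries, Gclm was the one member with an unadjusted p under 0.05 for ibrutinib (log2 0.33, SE 0.15, 95% interval 0.0033 to 0.66, unadjusted p = 0.0481, adjusted p = 0.823). The highest CTL library lay above the lowest IBR library. Its exons share 4.71% of their length with an antisense transcript and 3.88% with a pseudogene in the annotation used here. Both are also rows of the count files, where reads shared between genes go to the ambiguous rows. A small part of the Gclm reads may therefore be missing from its counts. The subunits thus had different patterns over the libraries, with Gclc apart between experiments and Gclm not.

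**Figure D2:**
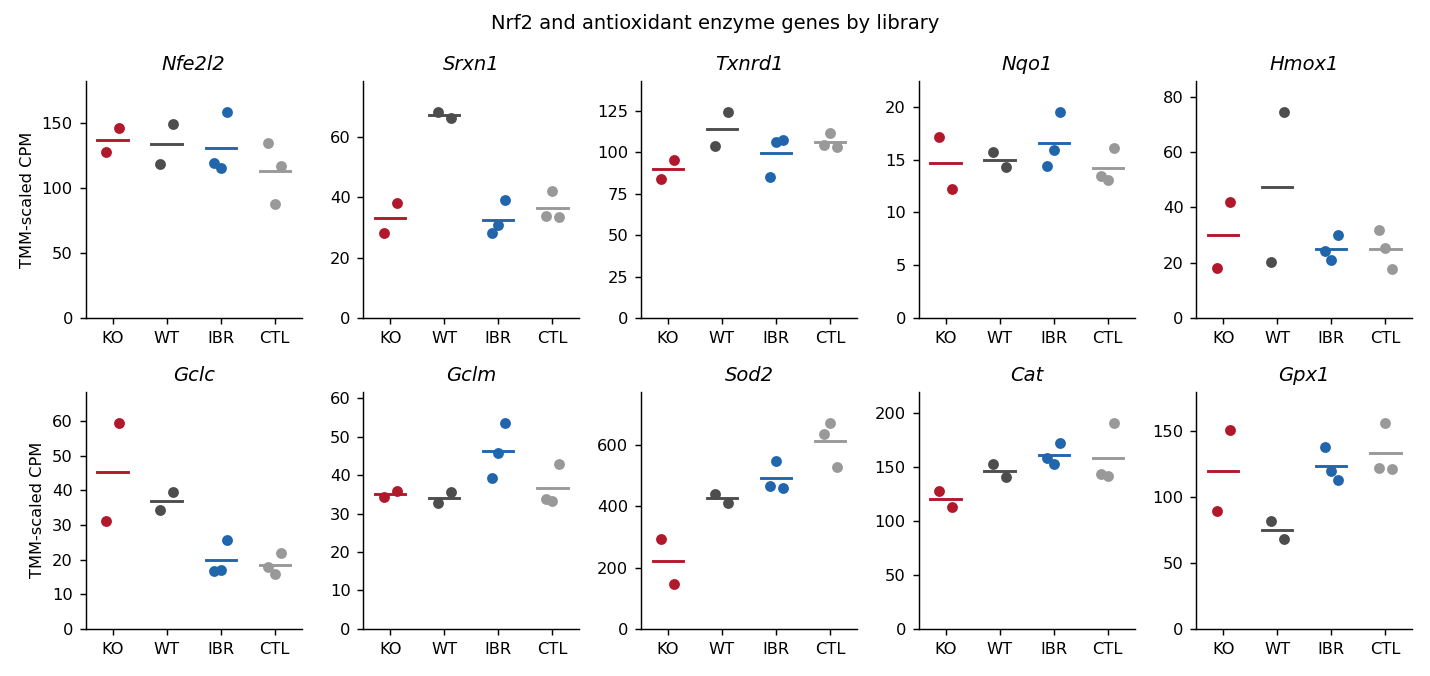
TMM-scaled CPM (vertical axis, from 0) of each member, 1 panel per gene, with 1 point per library, groups in the order KO, WT, IBR and CTL, and a bar at each group mean. Srxn1 shows the WT libraries at 66.1 and 68.1 CPM above all others, Sod2 shows KO337 lowest at 148 CPM, and Hmox1 shows the wide gap between WT35 and WT338.

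The superoxide and peroxide enzymes had log2 differences of unlike sign between genotypes, and none was called. Sod2 (ENSMUSG00000006818), the manganese superoxide dismutase of the mitochondrial matrix, had 292 and 148 CPM in KO26 and KO337, against 439 and 411 CPM in WT. Both libraries labelled KO lay below WT, and they differed from each other 1.97-fold. The log2 difference was -0.95 (SE 0.28, 95% interval -1.57 to -0.33, unadjusted p = 0.0065, adjusted p = 0.0872). Without KO26 it was -1.54 and called (adjusted p = 0.000583), and without KO337 it was -0.56 (adjusted p = 0.221). IBR libraries had 465, 549 and 458 CPM, against 637, 672 and 527 CPM in CTL, with overlapping ranges (log2 -0.32, SE 0.23, adjusted p = 0.824). In edgeR's fit of the IBR and CTL libraries alone, Sod2 was at -0.29 (SE 0.13, unadjusted p = 0.0435, adjusted p = 0.524). By limma voom it was at -0.37 (SE 0.14, unadjusted p = 0.0223, adjusted p = 0.242).

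The ratio of Sod2 to mitochondrial genes varied less across libraries than the Sod2 level, but its groups were apart in both comparisons. The sum was taken over 15 nuclear-encoded genes of the respiratory chain, citrate synthesis, the mitochondrial membrane and mitochondrial transcription (Tfam). It was 12625 and 7285 CPM in KO26 and KO337, against 16444 to 18739 in WT, and 20657 to 23772 in IBR, against 22449 to 26742 in CTL. All 15 had negative log2 differences between genotypes, with a median of -0.84. Both libraries labelled KO lay below both WT libraries for all 15, where this held for 26.9% of all tested genes. All 15 had an unadjusted p under 0.05, against 25.7% of all genes in either direction. After adjustment 0 were called, where 0.898% of all genes were called lower. Per 1000 CPM of that sum, a ratio formed after the values were seen, Sod2 was at 23.1 and 20.3 CPM in KO26 and KO337, against 23.4 and 25.0 CPM in WT. It was at 22.5, 23.1 and 21.4 CPM in IBR, against 23.8, 25.8 and 23.5 CPM in CTL. All 10 ratios lay within 20.3 to 25.8 while the Sod2 level itself ranged from 148 to 672 CPM. On this ratio both libraries labelled KO were still below both WT libraries, and every IBR library was below every CTL library. These differences in the ratio were not tested.

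**Figure D3:**
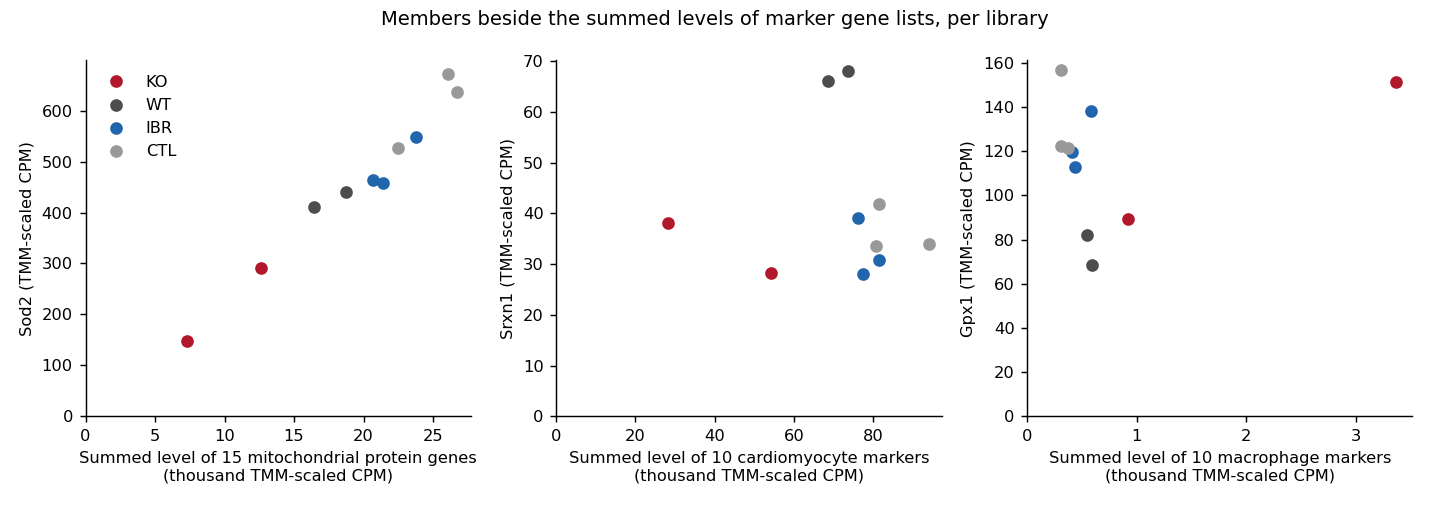
Levels of Sod2, Srxn1 and Gpx1 (vertical axes, TMM-scaled CPM) against the summed level of 15 mitochondrial genes, 10 cardiomyocyte markers and 10 macrophage markers (horizontal axes, in 1000 TMM-scaled CPM), 1 point per library coloured by group. Sod2 lies along the mitochondrial sum in all 10 libraries, and the WT libraries at 66.1 and 68.1 CPM of Srxn1 lie above the others. KO337 has the highest macrophage sum with 151 CPM of Gpx1, while CTL2 has the highest Gpx1, 157 CPM, at a macrophage sum of 308 CPM.

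Cat (ENSMUSG00000027187), catalase, which breaks down hydrogen peroxide mainly in peroxisomes, was at 128 and 113 CPM in KO26 and KO337, against 153 and 141 CPM in WT. The libraries labelled KO were both lower, by a small margin (log2 -0.28, SE 0.17, 95% interval -0.67 to 0.10, adjusted p = 0.323). Per 100000 CPM of cardiomyocyte markers, a ratio formed after its values were seen, Cat had the opposite order, at 236 and 403 in KO26 and KO337, against 207 and 205 in WT, while Sod2 per the same sum was at 537 and 526 in KO26 and KO337, against 596 and 598 in WT. It had 159, 153 and 173 CPM in IBR, against 143, 142 and 191 CPM in CTL (log2 0.03, adjusted p = 0.982).

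Gpx1 (ENSMUSG00000063856), the cytosolic and mitochondrial glutathione peroxidase, had the opposite sign to Sod2 between genotypes. Its level was 89.3 and 151 CPM in KO26 and KO337, against 81.9 and 68.5 CPM in WT. Both libraries labelled KO lay above WT, KO26 by little (log2 0.68, SE 0.24, 95% interval 0.15 to 1.21, unadjusted p = 0.0174, adjusted p = 0.121). Without KO337 the log2 difference was 0.23 (adjusted p = 0.670), and without KO26 it was 0.99 and called (adjusted p = 0.00466). IBR libraries had 138, 119.7 and 113 CPM, against 122, 157 and 121 CPM in CTL (log2 -0.11, adjusted p = 0.923). KO337, the library with the highest macrophage and fibroblast sums, was also the genotype library highest in Gpx1 and Gclc and lowest in Sod2 and Cat. Over all libraries Gpx1 was highest in CTL2, at 157 CPM, where the macrophage sum was 308 and the fibroblast sum 1058 CPM.

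Counted together for the libraries labelled KO against WT, 1 of 10 members was called lower and 0 higher, where 0.898% of all tested genes were called lower and 2.21% in either direction. Groups did not overlap for 4 members that were lower (Srxn1, Txnrd1, Sod2 and Cat) and for 1 that was higher (Gpx1), where this held for 26.9% of all genes in the lower and 26.3% in the higher direction. An unadjusted p under 0.05 was found for 3 members, and for 25.7% of all genes. The members' median log2 difference was -0.16, with a range from -1.02 to 0.68, against a median of 0.01 over all genes. Without WT338 the members' median was -0.0087, without KO337 -0.24 and without KO26 -0.23. With library size as the only scaling, the median of all genes moved to 0.23 and that of the members to 0.06, with no member called, so the members stayed below the median gene while the sign of their own median turned. The summed level of all 10 members was 850 and 842 CPM in KO26 and KO337, against 1068 and 1124 CPM in WT, and Sod2 alone made up 34.3% and 17.6% of it in KO26 and KO337, against 41.2% and 36.6% in WT.

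For IBR against CTL, 0 of 10 members were called by edgeR's quasi-likelihood test, DESeq2 or limma voom, and 0% of all tested genes were called by edgeR. In edgeR's fit of all libraries an unadjusted p under 0.05 was found for Gclm, that is 1 of 10 members, and for 5.52% of all genes. With the IBR and CTL libraries alone, Sod2 was under 0.05 as well (unadjusted p = 0.0435), as were 1308 of 13914 tested genes. No member had groups apart, where 7.55% of all genes did in the lower and 5.91% in the higher direction. The median log2 difference of the members was 0.02, against -0.03 over all genes. Intervals for single members reached from -0.53 to 0.21 for Srxn1 and from -0.20 to 0.62 for Nfe2l2, so differences of that size were not resolved in this fit. Its spread is shared with the KO and WT libraries, at a coefficient of variation of 0.221, against 0.167 in IBR and CTL alone.

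**Figure D4:**
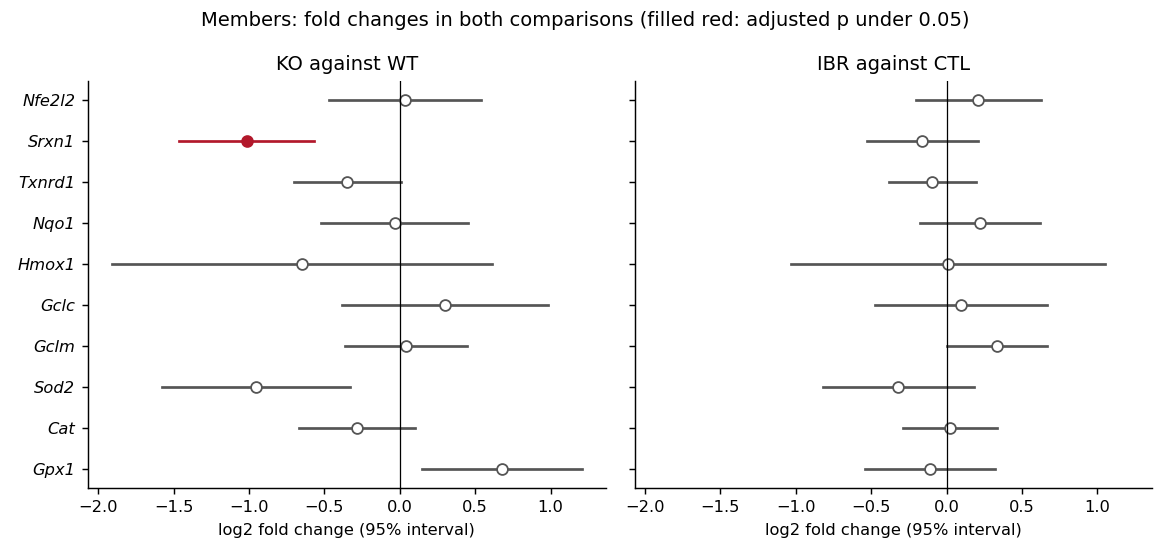
Log2 fold change of each member (rows) for libraries labelled KO against WT (left) and for IBR against CTL (right), with 95% intervals and filled points where the adjusted p was under 0.05. Srxn1 between genotypes is the one filled point at -1.02, Sod2 (-0.95) and Gpx1 (0.68) have genotype intervals that exclude 0, and the IBR points lie between -0.32 and 0.33.

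Whether a member differed between both comparisons was tested directly, as the genotype difference minus the drug difference. No member was called, and 4 of all tested genes (0.026%) were. Srxn1 had the lowest value, -0.86 (SE 0.26, unadjusted p = 0.0078, adjusted p = 0.383), and Gpx1 the highest at 0.79 (unadjusted p = 0.0279, adjusted p = 0.460). Sod2 was at -0.63 (adjusted p = 0.578) and Nfe2l2 at -0.18 (adjusted p = 0.856). The call of Srxn1 between genotypes and its absence under ibrutinib are therefore not shown to differ.

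Levels between genes were compared as CPM per kilobase (kb) of exon, with lengths from GENCODE vM21. In the libraries labelled KO, Gpx1 stood highest at 83.4 ± 30.4, followed by Cat at 46.2 ± 4.00, Nfe2l2 at 36.1 ± 3.40 and Sod2 at 22.0 ± 10.1 CPM per kb (SD, n = 2). In WT the order began with Cat at 56.2 ± 3.24, Gpx1 at 52.2 ± 6.55, Sod2 at 42.5 ± 2.00 and Nfe2l2 at 35.3 ± 5.76 CPM per kb (SD, n = 2). Neighbours in the WT order overlapped for Cat and Gpx1, Nfe2l2 and Hmox1, Hmox1 and Srxn1, and Gclc and Nqo1. In the libraries labelled KO the members from Sod2 down to Nqo1 each overlapped the next one in order. In IBR the order was Gpx1 at 85.7 ± 9.06, Cat at 61.9 ± 3.80, Sod2 at 49.0 ± 5.05 and Nfe2l2 at 34.5 ± 6.28 CPM per kb, and in CTL it was Gpx1 at 92.6 ± 14.0, Sod2 at 61.2 ± 7.57, Cat at 60.8 ± 10.8 and Nfe2l2 at 29.8 ± 6.28 CPM per kb (SD, n = 3 each), with Sod2 and Cat overlapping in CTL. By group means these 4 genes came first in every group, but Hmox1 at its highest reached 24.0 CPM per kb in the libraries labelled KO, where Sod2 at its lowest had 14.8, and 42.5 CPM per kb in WT, where it overlapped Nfe2l2 (31.2 to 39.4) and Sod2 (41.1 to 43.9).

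Of the Nrf2 targets, Srxn1 stood at 11.8 ± 2.45 in the libraries labelled KO, against 23.8 ± 0.511 CPM per kb in WT (SD, n = 2 each), and at 11.6 ± 2.02 in IBR, against 12.9 ± 1.67 CPM per kb in CTL (SD, n = 3 each). In WT it overlapped Hmox1 (27.1 ± 21.9 CPM per kb), and it lay above Txnrd1 (16.1 ± 2.05 CPM per kb). Gclm was lowest in the libraries labelled KO at 5.57 ± 0.193, against 5.42 ± 0.317 CPM per kb in WT, where it was also lowest. Gclc was lowest in IBR at 5.26 ± 1.36, against 4.91 ± 0.840 CPM per kb in CTL, and in both drug groups it overlapped Gclm.

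Other genes of the same redox systems gave 4 calls between genotypes among 91 tested (4.40% lower, against 0.898% of all tested genes), all lower, in lists chosen for their functions with earlier results of these data known. That count rested on the setting, as alternatives added after seeing the data show: DESeq2 called 17 lower and 5 higher, the fit without the filter 16 lower and 2 higher, library size only 1 lower, and voom or the KO and WT libraries alone 0. Without KO26 it was 23 lower and 14 higher, and without any 1 other library 0 or 1. Of 21 tested glutathione genes, 2 were lower and 0 higher (8 lower without the filter, 9 lower by DESeq2, 9 lower and 1 higher without KO26, and 0 by voom). Gstk1, a mitochondrial and peroxisomal glutathione transferase, had 37.5 and 19.7 CPM in KO26 and KO337, against 77.1 and 63.8 CPM in WT (log2 -1.30, SE 0.28, adjusted p = 0.0448). Mgst3, a microsomal glutathione transferase, had 52.9 and 36.7 CPM in KO26 and KO337, against 92.8 and 79.3 CPM in WT (log2 -0.94, SE 0.21, adjusted p = 0.0474). Both libraries labelled KO were below WT for each, with KO337 lowest. The median over the list was -0.50, and 18 of 21 log2 differences were negative, where 49.2% of all tested genes were.

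Of 14 other dismutase, peroxidase and methionine sulfoxide genes, 1 was lower. Msrb1, a selenoprotein that reduces oxidized methionine, had 47.6 and 54.2 CPM in KO26 and KO337, against 95.3 and 85.0 CPM in WT (log2 -0.82, SE 0.17, adjusted p = 0.0438). It was the one of the 4 in which KO26 lay below KO337, as Srxn1 did. Msra, the other class of methionine sulfoxide reductase, was at -0.64 (adjusted p = 0.0652), and the median over the list was -0.18.

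Of 10 genes that supply NADPH, the electron donor of glutathione and thioredoxin reductases, 1 was lower. Me3, mitochondrial malic enzyme, had 54.7 and 37.1 CPM in KO26 and KO337, against 102 and 85.8 CPM in WT (log2 -1.03, SE 0.21, adjusted p = 0.0404). G6pdx, the X-linked glucose-6-phosphate dehydrogenase of the pentose phosphate pathway, had a positive log2 difference of 1.10 (adjusted p = 0.108). These sources of NADPH thus had opposite signs, and the median over the list was -0.13. Without KO337, Gstk1, Mgst3, Msrb1 and Me3 were at -0.93, -0.72, -0.94 and -0.80 on the log2 scale, with adjusted p values of 0.110, 0.161, 0.0978 and 0.134, so each kept its sign and lost its call. Over all 16 alternative settings, which were applied to these genes after seeing the data, Gstk1 was called in 5, Mgst3 in 4, Msrb1 in 6 and Me3 in 4. The log2 differences stayed negative, which leaving out 1 library could hardly change, as for Srxn1. Leaving out WT35 or WT338 ended all 4 calls (adjusted p of 0.146 to 0.229), and leaving out 1 CTL or IBR library ended them as well, except that of Msrb1 without CTL2 or CTL3 (0.0479 and 0.0439). Gstk1 and Me3, like Sod2, encode proteins of mitochondria, and the mitochondrial and cardiomyocyte sums given above were lower in the same libraries; their part was not tested.

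The genes that regulate Nrf2, pair with it or are related to it gave no call among 13, with a median of -0.17. Keap1, the adaptor that marks Nrf2 for degradation, named outside the rule for its role, was at 0.02 (adjusted p = 0.970). Bach1, a repressor that competes with Nrf2 for the same elements, was at -0.55 (adjusted p = 0.112), and Mafk, a small Maf partner, at -0.87 (adjusted p = 0.213). The regulators thus gave small or unresolved differences, as Nfe2l2 did.

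Of 14 further Nrf2 targets 0 were called, with a median of 0.28. DESeq2 called 3 higher, the fit without the filter 1 higher, and the fit without KO26 5 higher and 1 lower. The median was 0.10 without KO337 and 0.53 without KO26. Slc7a11, the cystine importer that feeds glutathione synthesis, had 1.45 and 8.51 CPM in KO26 and KO337, against 0.643 and 0.126 CPM in WT. Both libraries labelled KO were above WT at low levels, KO337 most (log2 3.62, SE 0.88, adjusted p = 0.0598). Cbr3, a carbonyl reductase, had 3.66 and 5.61 CPM in KO26 and KO337, against 1.78 and 2.08 CPM in WT (log2 1.27, adjusted p = 0.0848). Srxn1 on the one hand, and Slc7a11 and Cbr3 on the other, all known Nrf2 targets, thus had log2 differences of opposite sign.

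Among 11 thioredoxin and peroxiredoxin genes 0 were called and the median was -0.25 (3 lower by DESeq2 and without the filter, and 4 lower with 2 higher without KO26). Prdx3, the mitochondrial peroxiredoxin and a partner of sulfiredoxin, was at -0.89 (adjusted p = 0.0643), and Prdx5, also found in mitochondria, at -0.70 (adjusted p = 0.0751). Of 8 heme and iron genes 0 were called, with a median of -0.22 (1 lower by DESeq2 and without the filter, 2 lower without KO26). Alas1, the first enzyme of heme synthesis, was at -0.69 (adjusted p = 0.1005) and Fech, the last, at -0.36 (adjusted p = 0.190). With library size as the only scaling, the medians of the lists of Nrf2 control, methionine sulfoxide and peroxidase, NADPH and heme genes became 0.05, 0.05, 0.09 and 0.01, so their signs depend on the scaling.

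**Figure D5:**
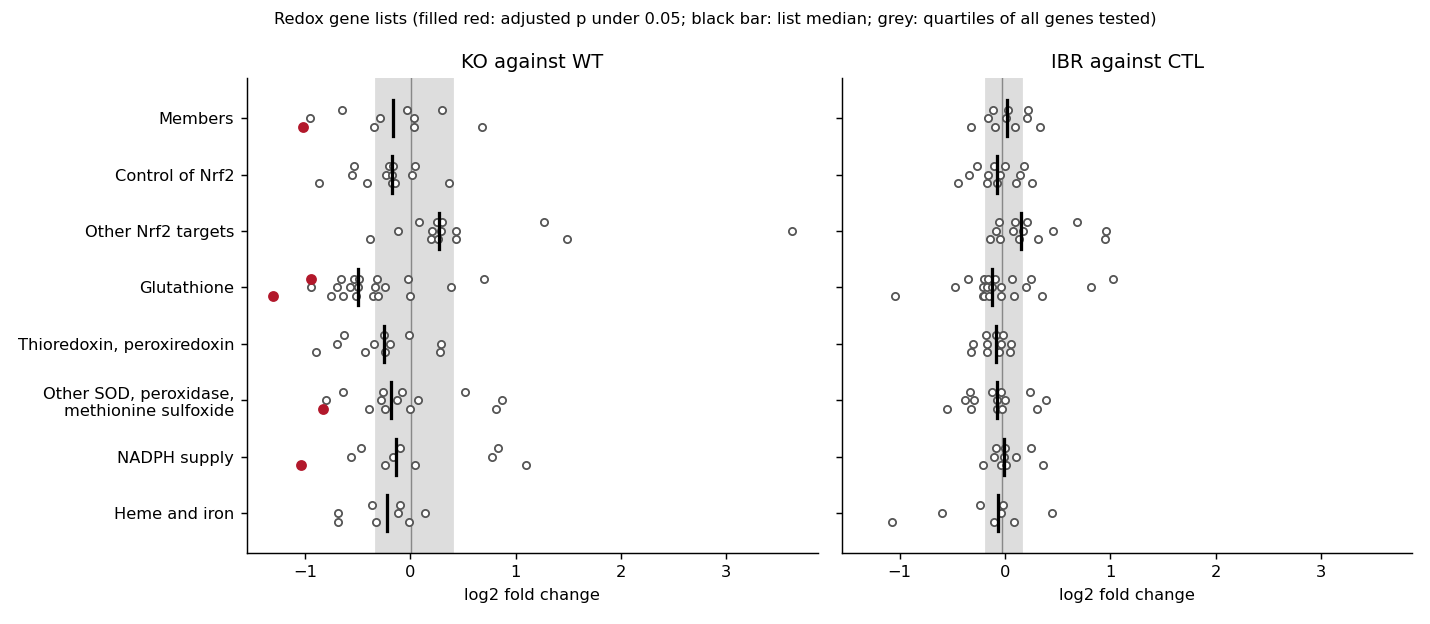
Log2 difference between libraries labelled KO and WT (left) and between IBR and CTL (right) for the 10 members and each tested gene of 7 further redox lists, 1 row of points per list, with a black bar at the list median, grey bands for the quartiles of all tested genes and filled points for called genes. Gstk1, Mgst3, Msrb1, Me3 and the member Srxn1 are the called genes, all below 0 on the left, where the further Nrf2 targets have the one positive median, 0.28.

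Under ibrutinib, 0 genes of any of the 7 lists were called, with list medians from -0.12 to 0.15. The largest median was again that of the further Nrf2 targets, at 0.15. Cbr3 had 2.84, 2.30 and 2.75 CPM in IBR, against 1.59, 0.865 and 1.57 CPM in CTL. The groups did not overlap at these low levels (log2 0.96, adjusted p = 0.823).

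Profiles over the 10 libraries were compared by the root mean square difference of log2 CPM, each gene centred on its mean. The genes most like Nfe2l2 were Prpf6, a splicing factor, at 0.124, Ambra1, an autophagy regulator, at 0.132, and Pias1, a SUMO ligase, at 0.133. Most like Srxn1 were Slmap, a sarcolemma-associated protein, at 0.183, Tmem251 at 0.201 and Zbtb38, a zinc finger protein, at 0.201. Slmap had 240.0 and 219 CPM in KO26 and KO337, against 476 and 359 CPM in WT, and a log2 difference of -0.86 between genotypes (adjusted p = 0.0822). None of these 6 genes was a member or in a redox list.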

How the data were processed

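Poly(A)-selected left atrial RNA was sequenced in 10 libraries (a strand-marking kit, per the labels' protocols). The authors deposited HTSeq read counts per gene, not normalized; the submitters' processing notes name STAR, HTSeq, edgeR and build mm9, and the authors' file names mark the counting as unstranded, so a gene and its antisense partner cannot be told apart. Unassigned rows (no feature 13.5% to 19.9%, ambiguous 3.14% to 3.99%, not unique 11.8% to 27.4% of records) were left out. Symbols were matched for 32860 of 37583 rows (87.4%); GENCODE vM21, of another build, gave exon lengths.

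Counts were analysed with edgeR 4.0.16 in R 4.3.3: filterByExpr (minimum count 10, minimum total 15), TMM, and a robust quasi-likelihood fit of all libraries with 1 mean per group (6 residual degrees of freedom), tested on simulated data. The shared coefficient of variation was 0.221, against 0.291 in KO and WT alone and 0.167 in IBR and CTL alone. SE was obtained by dividing each log2 fold change by the root of its F statistic. In a library 3 counts equal 0.150 to 0.201 CPM, and members had 181 or more counts. No libraries agreed within sampling noise.

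Members and lists were chosen with earlier results of these data known. Named genes are all members, every called list gene, the 2 of each list with the smallest genotype p, the 3 profiles most like Nfe2l2 and Srxn1, and Csk; Keap1, Myl7 and Gsta3 are named outside this rule, chosen after values were seen. Alternatives were relative log expression factors, library size only, no filter, DESeq2 1.42.0, limma 3.58.1 voom with quality weights, each library left out, each experiment alone and a replicate block; list counts under them were added after seeing the data.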

Additional observations from a re-analysis of the deposited data

How the results depend on the processing

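With 2 libraries per genotype, the number of members called for KO against WT (1 as reported) rested on the setting: it was 0 with library size only, limma voom or the KO and WT libraries alone, 2 without the filter or by DESeq2 (Srxn1 and Sod2), and 0 to 3 with 1 library left out, 3 being without KO26 (Srxn1, Sod2 and Gpx1). Of all tested genes, 339 were called as reported, 1146 without the filter, 1830 by DESeq2, 124 by voom, 0 with those libraries alone and 14 to 3933 with 1 library left out. For IBR against CTL no setting called a member, and 2 genes were called without the filter and 2 by DESeq2. For the difference of both effects, 0 to 2 members were called with 1 library left out, and of all genes 4 were called as reported, 0 with library size only, 84 without the filter, 140 by DESeq2, 0 by voom and 0 to 1564 with 1 library left out. The cause was not tested.

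Srxn1 kept its sign in all 16 settings for KO against WT, which leaving out 1 library could hardly change. Its adjusted p was 0.0657 under library size only, 0.0905 by voom and 0.297 with the KO and WT libraries alone. Signs turned for members near 0 and, with 1 library left out, for Hmox1 and Gclc, which vary between replicates. For KO against WT, Nfe2l2 was at -0.0046 and Gclm at -4.2e-06 without the filter, and Nqo1 at 0.19 under library size only. With 1 library left out, Nfe2l2 ranged from -0.13 to 0.20, Nqo1 from -0.32 to 0.17, Hmox1 from -1.39 to 0.55, Gclc from -0.26 to 0.67 and Gclm from -0.025 to 0.089. For IBR against CTL, Hmox1 was at -0.066 by voom, and with 1 library left out Txnrd1 ranged from -0.15 to 0.0081, Hmox1 from -0.18 to 0.22, Gclc from -0.14 to 0.24, Cat from -0.050 to 0.18 and Gpx1 from -0.20 to 0.020. For the difference, Hmox1 ranged from -1.42 to 0.54 and Gclc from -0.38 to 0.58.

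IBR and CTL share the numbers 1 to 3, but the labels do not state that these pair libraries, so they were not taken to do so. Same-numbered libraries deviated together with correlations of 0.015, 0.141 and 0.023, and differently numbered ones with correlations from -0.174 to 0.167. With a replicate block 0 members and 0 genes were called for IBR against CTL, and 0 without it in the same libraries (1731 and 1308 at an unadjusted p under 0.05).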

Other observations

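Between genotypes, groups did not overlap for 45 lower (49.5%) and 16 higher (17.6%) of the 91 further redox genes tested. Of all tested genes, this held for 26.9% in the lower and 26.3% in the higher direction. Under ibrutinib, groups did not overlap for 6 higher (6.59%) and 7 lower (7.69%) of the 91, where 5.91% and 7.55% of all tested genes did so. The ibrutinib shares are thus near those of all tested genes. None of the 91 was called under ibrutinib by edgeR's quasi-likelihood test. As examples chosen after their values were seen, Gsta3, an alpha-class glutathione transferase, had 16.2, 6.61 and 13.1 CPM in IBR, against 6.15, 5.77 and 5.74 CPM in CTL (log2 1.02, adjusted p = 0.823). The selenoprotein Msrb1, called lower between genotypes, was also below CTL in all 3 IBR libraries, at log2 -0.55 (adjusted p = 0.823).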
